A study of Lemna aequinoctialis with 6 samples.

Results

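AP2/ERF transcription factors are plant proteins that bind DNA through an AP2 domain, and 34 Trinity genes with 72 transcripts carried such a description among the 28620 genes and 81787 transcripts measured in Lemna aequinoctialis, a small floating duckweed. Members were the transcripts whose gene description in the authors' deposited list named an ethylene-responsive transcription factor, a dehydration-responsive element-binding protein, an AP2-like factor or an AP2/ERF protein. That list held 5093 transcripts of 2424 genes that the authors had called between plants treated with IPA (indole-3-propionic acid) and control plants, so the members were chosen by the same contrast that is described here. Every difference between IPA and control below is therefore a description of chosen genes, and no test of a member supports it. AP2/ERF genes that the authors did not call carry no description in these files and were not analysed here.

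The control and IPA groups held 3 libraries each, and treatment is the only difference that the labels give. They give neither the dose nor the duration, nor whether each library came from a culture of its own, so the spread between libraries may be technical. Libraries held 30149649 to 45233584 reads, and 1 read was worth 0.0205 to 0.0318 units of the deposited normalised read count. Levels are in that unit, are not per length and so are compared between libraries, not between genes. In whole plants, fewer cells of a type and less RNA per cell cannot be told apart. Described green tissue markers (61 listed transcripts, all higher in IPA, chlorophyll a-b binding proteins among them) summed to 1905 to 2874 in control and 7256 to 9871 in IPA, while 51 listed transcripts matched by flower wording (47 lower and 4 higher, MADS-box proteins among them) summed to 913 to 1083 in control and 197 to 283 in IPA. The root wording matched a single gene, Root phototropism protein 3, which summed to 5.24 to 10.8 in control and 18.04 to 29.1 in IPA. That match rests on the name alone and is not read as a measure of root tissue. The flower wording took in any described MADS-box protein, SVP and JOINTLESS among them. It rests on names too and is not read as a measure of flower tissue. The guard cell and the vascular marker wording matched 0 described transcripts. The part of such shifts in the AP2/ERF values was not tested.

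In plants the AP2/ERF proteins fall into subfamilies. DREB proteins bind the dehydration-responsive element and are known for roles in cold and drought responses, ERF proteins bind the GCC box and take part in ethylene, jasmonate and defence responses, and AP2 proteins, which carry a pair of AP2 domains, act in meristems, embryos and lipid synthesis. Ethylene acts on part of the ERF proteins through receptors, the transducer EIN2 and the master factor EIN3, whose level is set by EBF F-box proteins. The members were sorted here by the subfamily known for each name in Arabidopsis or rice. This gave 17 DREB genes, 11 ERF genes, 3 AP2 genes, 2 genes named for At4g13040 (a protein that stands apart from the subfamilies, called a soloist) and 1 gene whose transcripts were named ERF056 or ERN1 and was not sorted.

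In the authors' list, 26 of the 34 genes were higher in IPA and 8 were lower, and no gene had listed transcripts going both ways. By transcripts, 64 of 72 (88.9%) were higher, against 50.8% of all listed transcripts. Several transcripts belong to 1 gene and may share reads, so they are not separate observations. The authors' log2 fold changes of members began at 1.00 in size and their FDR ended at 0.0498, just inside the limits of the list. Values just outside the list are not on the authors' scale. On the log2(value + 0.5) scale used below, the 3 highest among unlisted isoforms of member genes were 1.09 (LEP), 1.05 (ERF021) and 0.98 (DREB2G).

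All 72 transcripts passed the filter on low reads. With limma on log2(value + 0.5) and Benjamini-Hochberg adjustment at 0.05, 46 of them passed, 42 higher and 4 lower in IPA, where 8.37% of the 78722 transcripts tested passed (4.49% higher and 3.87% lower). Of the authors' listed transcripts 68.4% passed in the same fit. By gene, 16 had a transcript that passed as higher, 4 as lower and 14 had none, where 71.9% of the 2424 listed genes had one that passed. Values of the groups did not overlap in 64 members, 58 higher and 6 lower, where this held for 32.9% of all transcripts tested (16.6% higher and 16.3% lower). Since the members were chosen on this contrast, nothing is read from these shares. The median log2 difference (IPA minus control, on the log2(value + 0.5) scale) was 1.04 over the members and 0.02 over all transcripts tested. edgeR's quasi-likelihood test gave 47 members, with 8.12% of all, and DESeq2 gave 62, with 13.2% of all. The limma count of 46 was 13 without control 2, 10 without IPA 2 and 19 without IPA 3, where 1.93, 1.64 and 3.18% of all transcripts passed.

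**Figure D1:**
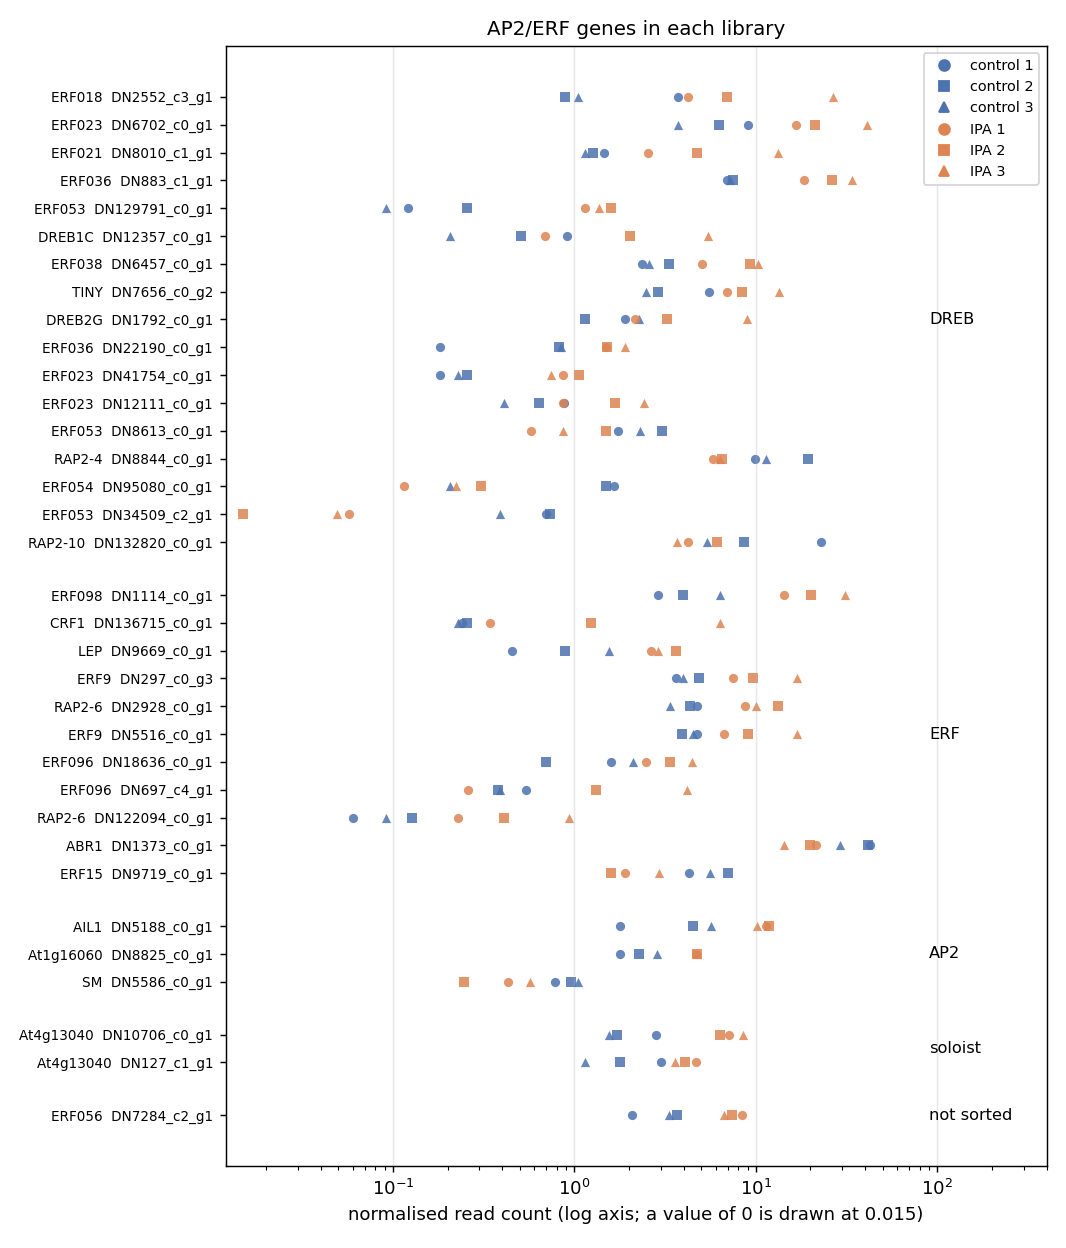
Normalised read count (log axis) of the listed transcript with the most reads of each of the 34 AP2/ERF genes, in the 3 control libraries (blue) and the 3 IPA libraries (orange), sorted by subfamily and, within each, by log2 difference. Labels leave out the prefix TRINITY_. The groups did not overlap in 28 of the genes, which were chosen on this contrast, where this held for 32.9% of all transcripts tested. Triangles in orange (IPA 3) lie far to the right in part of the DREB and ERF genes.

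Among the DREB genes, 12 were higher and 5 lower in IPA. For each gene the values below are of its listed transcript with the highest mean, in control 1, 2 and 3 and then in IPA 1, 2 and 3. ERF018, known in Arabidopsis as ORA47, an activator of jasmonate synthesis genes, stood at 3.74, 0.891 and 1.05 in control and at 4.22, 6.96 and 26.5 in IPA (TRINITY_DN2552_c3_g1; log2 2.23 ± 0.67, SE, n = 3 per group here and below). IPA 3 was the highest library and IPA 1 lay just above control 1.

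ERF023 was the description of 3 genes. The one with the most reads, TRINITY_DN6702_c0_g1, stood at 9.05, 6.27 and 3.71 in control and at 16.7, 21.2 and 41.2 in IPA (log2 1.95 ± 0.37). TRINITY_DN41754_c0_g1 stood at 0.181, 0.254 and 0.229 in control and at 0.862, 1.06 and 0.741 in IPA (log2 0.94 ± 0.19), on 6 to 10 reads in each control library. This is 1 of 4 higher genes in which every control value is under the pseudocount of 0.5, so that the log2 difference understates the change (linear ratio of means 4.02). Groups of both genes were apart, and IPA 3 was the highest IPA library in the first and the lowest in the second. The third, TRINITY_DN12111_c0_g1, stood at 0.875, 0.636 and 0.412 in control and at 0.862, 1.68 and 2.42 in IPA, where IPA 1 lay within the control range (log2 0.87 ± 0.29).

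ERF036 named a pair of genes. TRINITY_DN883_c1_g1 had 3 transcripts, all listed, and the one with the most reads stood at 6.94, 7.44 and 7.18 in control, a coefficient of variation of 3.49%, and at 18.3, 26.4 and 33.98 in IPA (log2 1.76 ± 0.22). Its other transcripts went alike, so that the log2 differences of the 3 were 1.56 to 1.84. TRINITY_DN22190_c0_g1 stood at 0.181, 0.827 and 0.846 in control and at 1.49, 1.51 and 1.90 in IPA (log2 0.996 ± 0.28). ERF038 stood at 2.35, 3.34 and 2.58 in control and 5.06, 9.31 and 10.2 in IPA (log2 1.37 ± 0.26), and TINY, a factor named for the small plants that its overexpression gives in Arabidopsis, stood at 5.52, 2.89 and 2.47 in control and 6.95, 8.43 and 13.5 in IPA (log2 1.31 ± 0.31). In all of these the lowest IPA library was above the highest control library.

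ERF021 had 3 listed transcripts, of which the one with the most reads stood at 1.45, 1.27 and 1.14 in control and at 2.56, 4.75 and 13.2 in IPA (log2 1.76 ± 0.46). Groups were apart, with control values close together and IPA values spread over a wide range. The members that carry the DREB name had IPA values spread as widely and control values less close together. Dehydration-responsive element-binding protein 1C (DREB1C), of the class known for cold responses, stood at 0.905, 0.509 and 0.206 in control and at 0.689, 2.03 and 5.46 in IPA (log2 1.39 ± 0.53). Dehydration-responsive element-binding protein 2G (DREB2G), of a class known for drought and heat responses, stood at 1.90, 1.15 and 2.26 in control and at 2.15, 3.23 and 8.92 in IPA (log2 1.03 ± 0.43). In both, IPA 1 lay within the control range.

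The 5 lower DREB genes included RAP2-4, a factor tied to light and drought responses in Arabidopsis, at 9.84, 19.3 and 11.4 in control and 5.83, 6.55 and 6.33 in IPA (log2 -1.0002 ± 0.24). Its groups did not overlap, and the IPA libraries were close to each other. RAP2-10 stood at 22.8, 8.65 and 5.40 in control and at 4.22, 6.10 and 3.68 in IPA (log2 -1.09 ± 0.45), where control 1 was far above the other libraries and the groups overlapped. ERF054 stood at 1.66, 1.49 and 0.206 in control and at 0.115, 0.307 and 0.222 in IPA (log2 -1.03 ± 0.39), with control 3 among the IPA values.

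ERF053, the description of 3 genes and in Arabidopsis a factor of drought responses, was the name under which genes differed in direction. TRINITY_DN129791_c0_g1 was higher in every IPA library, from 0.121, 0.254 and 0.0915 in control to 1.15, 1.60 and 1.36 in IPA. With 4, 8 and 4 reads in control, its log2 difference (1.51 ± 0.20) is held down by the pseudocount, and the linear ratio of means is 8.80. TRINITY_DN34509_c2_g1 was lower in every IPA library, from 0.694, 0.732 and 0.389 in control to 0.0575, 0 and 0.0494 in IPA. Reads of TRINITY_DN34509_c2_g1 numbered 23, 23 and 17 in control and 2, 0 and 2 in IPA, under a floor of 3 reads in each IPA library, so its log2 difference (-1.03 ± 0.20) is set by the pseudocount too. TRINITY_DN8613_c0_g1 stood at 1.75, 3.02 and 2.29 in control and at 0.575, 1.49 and 0.865 in IPA (log2 -0.97 ± 0.27), also with groups apart. As the files hold no sequences, whether the 3 genes are copies, parts of 1 gene or alleles was not analysed here.

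**Figure D2:**
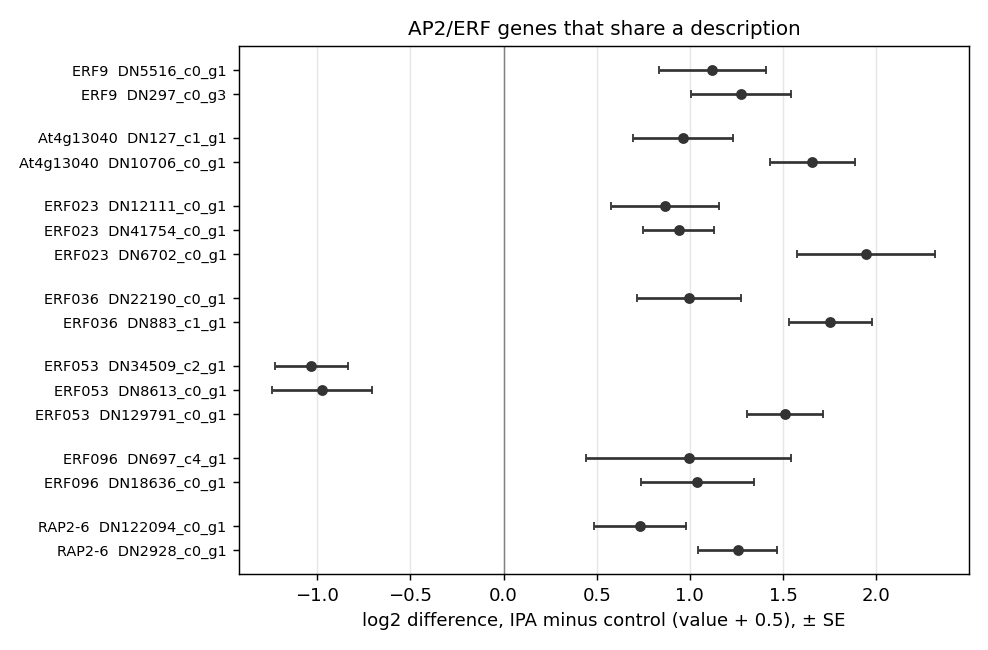
Log2 difference between IPA and control (± SE, n = 3 per group) of the 16 AP2/ERF genes that share a description with another, grouped by description. Under ERF053 one gene lies at 1.51 and the other 2 at -0.97 and -1.03, while the genes under each of the other 6 descriptions lie above 0.

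Among the 11 ERF genes, 9 were higher and 2 lower in IPA. ERF098, an activator of ascorbate synthesis in Arabidopsis, had 4 transcripts, all listed, whose log2 differences were 2.02 to 2.18. The one with the most reads stood at 2.90, 3.98 and 6.34 in control against 14.3, 20.2 and 30.9 in IPA. Summed over the gene, the values were 12.6, 16.4 and 24.6 in control and 54.8, 78.3 and 115 in IPA (log2 of the sum 2.17 ± 0.30). All IPA libraries were above all control libraries, with IPA 3 the highest.

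RAP2-6, a factor responsive to abscisic acid and salt in Arabidopsis, named a pair of genes. TRINITY_DN2928_c0_g1 had 4 transcripts, all listed, and the one with the most reads stood at 4.74, 4.33 and 3.39 in control and at 8.70, 13.3 and 10.1 in IPA (log2 1.26 ± 0.21). TRINITY_DN122094_c0_g1 had 2 to 4 reads in each control library and 8, 20 and 38 in IPA 1, 2 and 3 (log2 0.73 ± 0.25, held down by the pseudocount; linear ratio of means 5.66). Groups did not overlap in either gene, and the second is near the floor in control.

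Ethylene-responsive transcription factor 9 (ERF9), a transcriptional repressor in Arabidopsis, also named a pair of genes. TRINITY_DN297_c0_g3 stood at 3.65, 4.87 and 3.98 in control and at 7.53, 9.70 and 16.8 in IPA (log2 1.28 ± 0.27). TRINITY_DN5516_c0_g1 had 1 listed transcript of 7, at 4.77, 3.91 and 4.48 in control and at 6.69, 9.05 and 16.9 in IPA (log2 1.12 ± 0.29). Both were apart between groups and highest in IPA 3. LEP, a factor known from leaf development in Arabidopsis, stood at 0.453, 0.891 and 1.56 in control and at 2.64, 3.62 and 2.89 in IPA (log2 1.34 ± 0.28), with groups apart and IPA 2 the highest.

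CRF1, of the cytokinin response factors, stood at 0.241, 0.254 and 0.229 in control and at 0.345, 1.23 and 6.38 in IPA (log2 1.54 ± 0.65). Reads numbered 8, 8 and 10 in control and 12, 60 and 258 in IPA, so the pseudocount holds the log2 difference down, and the linear ratio of means is 10.97. Groups were apart, yet IPA 1 was close to control and IPA 3 many times above the other IPA libraries. ERF096 named a pair of genes, at 1.60, 0.700 and 2.10 in control against 2.47, 3.36 and 4.47 in IPA (TRINITY_DN18636_c0_g1; log2 1.04 ± 0.30) and at 0.543, 0.382 and 0.389 against 0.259, 1.31 and 4.20 (TRINITY_DN697_c4_g1; log2 0.99 ± 0.55). In the latter IPA 1 was the lowest of all libraries and IPA 3 the highest. In TRINITY_DN18636_c0_g1 the listed transcript was 1 of 4 and held 6.3 to 21.5% of the gene's sum. Its 3 unlisted isoforms had log2 differences of -0.22 to 0.79. The sum over all 4 changed less than the listed transcript (log2 of the sum 0.51 ± 0.21), with groups apart.

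Both lower ERF genes had groups that did not overlap. ABR1, a repressor of abscisic acid responses in Arabidopsis, stood at 42.8, 41.5 and 29.0 in control and at 21.3, 19.8 and 14.4 in IPA (log2 -1.01 ± 0.22), on 581 reads or more in each library. Ethylene-responsive transcription factor 15 (ERF15) stood at 4.29, 6.997 and 5.60 in control and at 1.90, 1.60 and 2.92 in IPA (log2 -1.22 ± 0.25).

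Of the AP2 genes, 2 were higher and 1 lower. TRINITY_DN5188_c0_g1 had 7 transcripts, 5 of them listed and named AIL1, BBM or BBM2. These names stand for relatives of AINTEGUMENTA and BABY BOOM, which maintain meristems and can start embryo growth in Arabidopsis and Brassica. Its transcript with the most reads, named AIL1, stood at 1.78, 4.48 and 5.70 in control and at 11.4, 11.8 and 10.1 in IPA (log2 1.49 ± 0.32). IPA libraries lay close together, with a coefficient of variation of 7.78%, and control 1 was the lowest of the control libraries, where the coefficient was 50.3%.

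TRINITY_DN8825_c0_g1 had 22 transcripts, 8 of them listed and named WRI1, At1g16060, At1g79700 or At2g41710. WRI1 is the activator of fatty acid synthesis genes in Arabidopsis seeds, and At1g16060 and At1g79700 are its close relatives. Listed transcripts of this gene had log2 differences of 0.62 to 1.35, and the one with the most reads, named At1g16060, stood at 1.78, 2.26 and 2.86 in control and at 4.71, 4.75 and 4.74 in IPA (log2 0.92 ± 0.20). The IPA values were nearly equal, with a coefficient of variation of 0.441%, on 164, 232 and 192 reads. Counts of this size vary by more than that through counting alone, so the closeness is not read as a trait of the gene. Which of the names fits the gene was not analysed here, since names differ between transcripts of 1 gene.

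The lower AP2 member, described as AP2-like factor SM, was 1 of 8 transcripts of TRINITY_DN5586_c0_g1. It stood at 0.785, 0.954 and 1.05 in control and at 0.431, 0.246 and 0.568 in IPA (log2 -0.66 ± 0.21), on 12 to 46 reads a library. The groups did not overlap. Summed over its 8 transcripts, however, the gene was at 4.86, 5.41 and 7.04 in control and at 6.23, 6.12 and 6.35 in IPA (log2 of the sum 0.12 ± 0.20), with overlapping groups.

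Both genes described as At4g13040, the soloist, were higher in IPA. TRINITY_DN10706_c0_g1, with 1 transcript, stood at 2.81, 1.72 and 1.56 in control and at 7.10, 6.39 and 8.55 in IPA (log2 1.66 ± 0.23). TRINITY_DN127_c1_g1 had 30 transcripts in the table, 14 of them listed, with log2 differences of 0.59 to 1.37 among the listed. Its sum was 38.6, 25.8 and 20.6 in control and 54.9, 57.4 and 56.4 in IPA (log2 of the sum 1.03 ± 0.22). The groups were apart for both genes. These 14 transcripts alone made up 14 of the 72 members, so counts by transcript lean on this gene. The unsorted gene TRINITY_DN7284_c2_g1, named ERF056 in 2 of its transcripts and ERN1 in the third, stood at 2.08, 3.69 and 3.32 in control and at 8.42, 7.39 and 6.67 in IPA (log2 1.20 ± 0.22).

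Library IPA 3 stood apart in part of the genes. Of the 26 higher genes, 18 had their highest IPA value in IPA 3, 6 in IPA 2 and 2 in IPA 1. In the authors' list, 61.3% of transcripts higher in IPA had their highest IPA value in IPA 3, and 39.4% of all transcripts tested did. The value in IPA 3 was at least 2 times the mean of IPA 1 and IPA 2 in 9 of the 26 genes, in 15.2% of the listed transcripts higher in IPA and in 3.84% of all transcripts tested. Members are counted here by gene, each through its listed transcript with the highest mean. The shares beside them count transcripts, so the figures are not like for like and no excess is read from them. The 9 were 5 DREB genes (DREB1C, DREB2G, ERF018, ERF021 and ERF023 in TRINITY_DN6702_c0_g1) and 4 ERF genes (CRF1, ERF096 in TRINITY_DN697_c4_g1, ERF9 in TRINITY_DN5516_c0_g1 and RAP2-6 in TRINITY_DN122094_c0_g1), and the ratio in CRF1 reached 8.11. The 2 higher AP2 genes had ratios of 0.875 and 1.003.

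**Figure D3:**
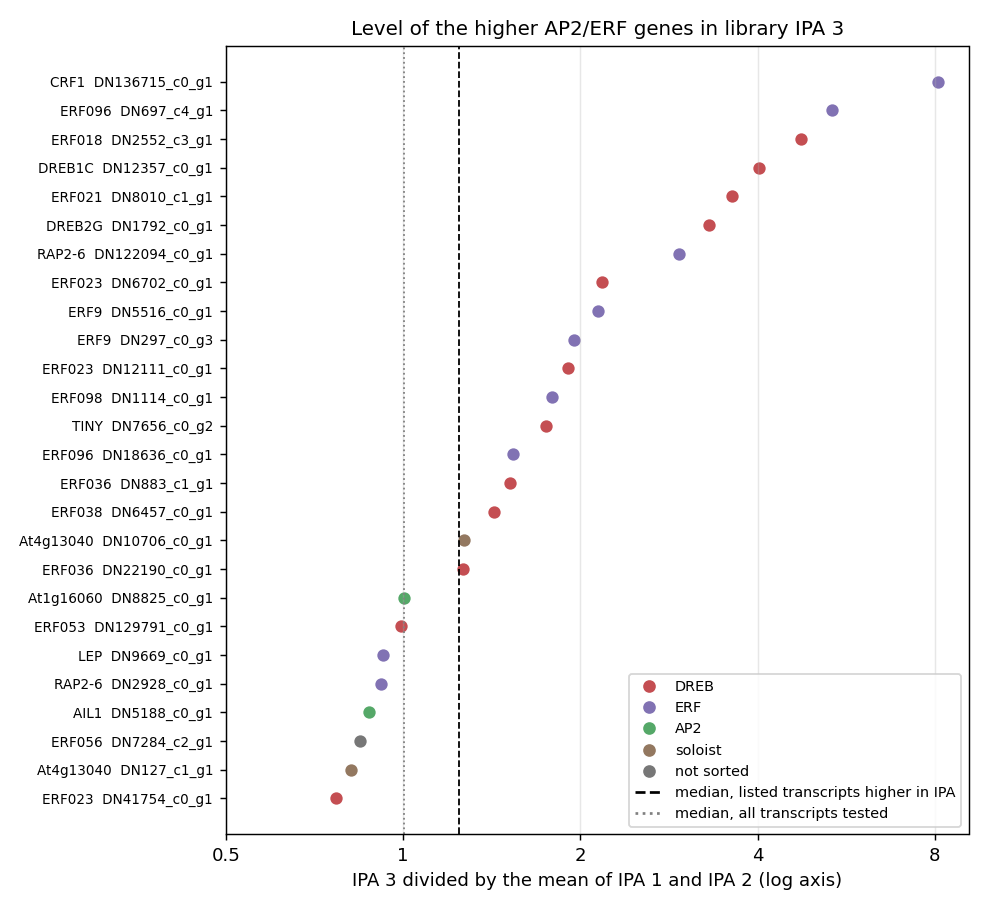
Normalised read count in IPA 3 divided by the mean of IPA 1 and IPA 2 (log axis) for the 26 AP2/ERF genes higher in IPA, coloured by subfamily. The dashed line is the median of the listed transcripts higher in IPA (1.25) and the dotted line that of all transcripts tested (1.00), and 9 genes lie above 2.

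Without IPA 3, all 26 genes had a positive log2 difference, and in 22 of them IPA 1 and IPA 2 lay above all control libraries. The genes were chosen as higher with IPA 1 and IPA 2 included, so nothing is read from these counts. The share over all transcripts without IPA 3 is not given here for such separation. The median log2 difference of the 26 genes was 1.29 with all libraries and 1.05 without IPA 3. Over the 9 genes it was 1.39 and 0.77, and over the other 17 it was 1.28 and 1.19. CRF1 stood at 1.54 with IPA 3 and at 0.70 without it, ERF018 at 2.23 and 1.50, ERF021 at 1.76 and 1.17, and DREB2G at 1.03 and 0.51. ERF053 in TRINITY_DN129791_c0_g1 (1.51 and 1.51) and AIL1 (1.49 and 1.55) were about as large without that library.

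The spread between IPA libraries was wider than between control libraries in 19 of the 34 genes. The share over all transcripts is not given here. The median coefficient of variation over IPA libraries was 34.6% for the 34 genes and 17.2% for the 70215 transcripts tested within the members' range of mean level. Over control libraries it was 32.9% and 25.2%. The 34 genes were chosen on these same libraries and the 70215 transcripts were not. The medians of other listed transcripts are not given here, so nothing about the family is read from these gaps. The DREB genes had medians of 44.8% in IPA and 37.7% in control, and the ERF genes 38.5% and 20.8%. The AP2 genes stood at 7.78% in IPA and 23.5% in control. The soloist genes stood at 14.2% and 40.5%, and the unsorted gene at 11.7% and 27.8%. These values rest on 3, 2 and 1 genes. They were lower in IPA than in control, the same direction as over the 70215 transcripts.

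Unlisted isoforms of the member genes came from the same contrast and are given as a description as well. All transcripts in the table were listed for 22 genes, and the other 12 had 54 unlisted isoforms, of which 51 passed the filter on low reads. Of these, 45 had a positive and 6 a negative log2 difference, with a median of 0.51, and 3 passed limma's FDR of 0.05, all higher, where 4.49% of all transcripts tested passed as higher, so the count is near the share over all transcripts. All 16 unlisted isoforms of the At4g13040 gene and all 11 tested of the WRI1 gene were positive.

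Listed isoforms were chosen for their difference between the groups, so a shift of their share of the gene's values follows from the choice and is given as a description. In the SM gene the listed transcript held 16.1, 17.6 and 14.9% of the sum in control and 6.91, 4.01 and 8.95% in IPA. In the ERF023 gene TRINITY_DN12111_c0_g1 it held 31.9, 25.0 and 31.6% in control and 42.3, 57.7 and 59.8% in IPA, while its other isoform was at a log2 difference of -0.12. The listed transcripts of the AIL1 and BBM gene held 83.9 to 86.8% in control and 88.1 to 89.7% in IPA, a smaller shift. Of the 12 genes with unlisted isoforms, the listed share was higher in every IPA library than in any control library in 7, lower in 1 and overlapping in 4.

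With values summed over all transcripts of each gene, 14 of the 34 genes passed limma's FDR of 0.05 as higher, 5 as lower and 15 did not pass, where 10.3% of the 27203 gene sums tested passed (5.65% higher and 4.68% lower). Groups of sums overlapped in 8 genes. The share over all gene sums is not given here, and nothing is read from this count. The ERF9 gene TRINITY_DN5516_c0_g1 stood in sum at 48.3, 33.6 and 31.0 in control and at 40.3, 52.4 and 101 in IPA (log2 of the sum 0.69 ± 0.31), with IPA 1 within the control range, although its listed transcript was apart between groups.

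**Figure D4:**
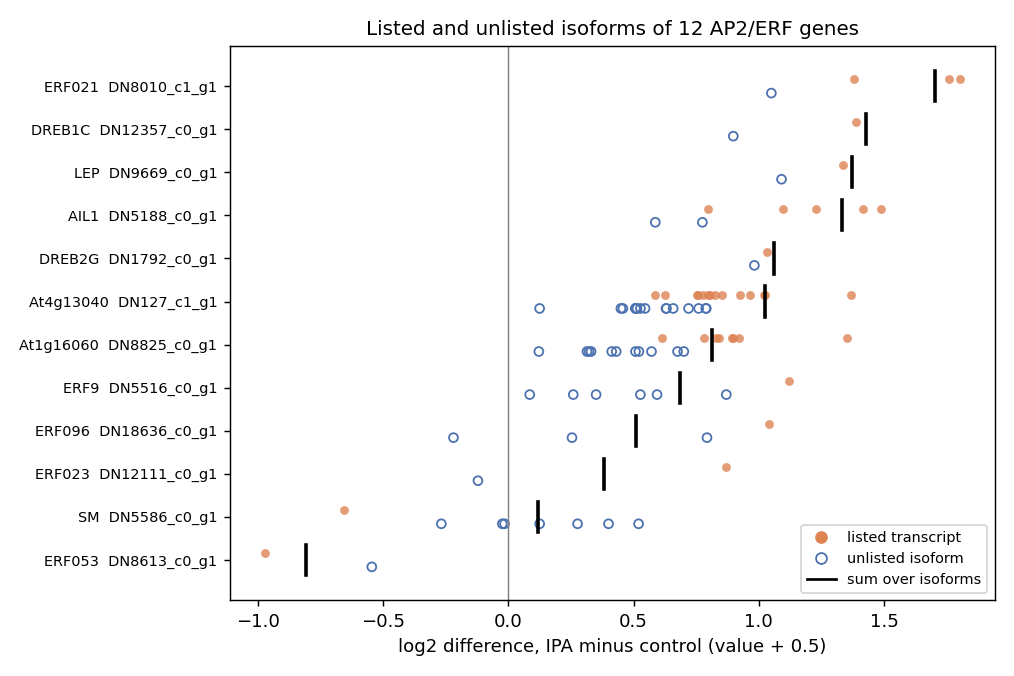
Log2 difference between IPA and control of listed transcripts (filled), unlisted isoforms (open) and the sum over isoforms (bar) for the 12 AP2/ERF genes with unlisted isoforms. The bar of the SM gene lies at 0.12 while its listed transcript lies at -0.66, and the bars of the other genes lie on the side of their listed transcripts.

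Other genes whose description matched wording of ethylene synthesis and signalling were few, and all came from the authors' own selection on these samples. Counts of the lists below therefore stand against the 71.9% of all listed genes that had a transcript past limma's FDR of 0.05 (68.4% of listed transcripts), and 8.37% of all transcripts tested. Of 3 genes in the synthesis list, 2 passed limma's FDR of 0.05 as higher and 1 as lower, with a median log2 difference of 1.53 over its 4 transcripts, of which 2 passed without control 2. The genes described as 1-aminocyclopropane-1-carboxylate oxidase homolog 11 went both ways. That oxidase makes the last step of ethylene synthesis, but whether these homologs have its activity was not analysed here. TRINITY_DN5356_c0_g2 rose from 5.16, 4.71 and 3.25 to 10.4, 15.5 and 34.5 (log2 1.93 ± 0.38, limma FDR 0.0187), and TRINITY_DN5356_c0_g1 fell from 23.1, 20.3 and 13.4 to 8.36, 7.21 and 5.19 (log2 -1.38 ± 0.24, limma FDR 0.00985). The riser was highest in IPA 3, and the groups of both were apart.

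In the perception and signalling list, 2 of 3 genes passed as higher and 0 as lower, again beside 71.9% of listed genes, with a median log2 difference of 0.95 over 4 transcripts. EIN2, the transducer between receptors and nucleus, rose from 1.15, 1.15 and 1.08 to 2.15, 2.76 and 2.42 (log2 0.86 ± 0.19, limma FDR 0.0238). EIN3-binding F-box protein 2, which marks EIN3 for breakdown, rose in TRINITY_DN2611_c0_g1 from 10.4, 14.4 and 12.05 to 21.7, 24.1 and 28.8 (log2 0.99 ± 0.19, limma FDR 0.0145). A further gene with this description stood at 0.362, 0.127 and 0.0457 in control and at 0.230, 1.43 and 0.890 in IPA (limma FDR 0.118). Of the 4 transcripts of this list 3 passed with all libraries, 1 without control 2 and 0 without IPA 2 or without IPA 3. Ethylene-overproduction protein 1, a negative regulator of the synthesis enzymes, was the other riser of the synthesis list (log2 1.54 and 1.53 in its transcripts). The median of that list is therefore not read as a rise of ethylene synthesis.

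Around the DREB class, 2 of 5 described and likewise preselected cold and dehydration genes passed as higher and 3 as lower, beside the same 71.9%, with a median log2 difference of -1.21 over 10 transcripts, of which all 10 passed with all libraries, 2 without control 2 or without IPA 2, 4 without IPA 3 and 6 without IPA 1. Calmodulin-binding transcription activators, of the family that activates DREB1 genes in Arabidopsis, fell in both described genes. The one named CBT fell from 43.5, 31.8 and 35.8 to 15.5, 14.4 and 16.9 (log2 -1.21 ± 0.18, limma FDR 0.00428). A cold-regulated inner membrane protein of the chloroplast (TRINITY_DN2580_c0_g1) rose from 9.75, 7.35 and 3.09 to 17.1, 28.7 and 44.7 in its transcript with the most reads (log2 2.11 ± 0.43, limma FDR 0.0244), and Cold-regulated protein 28 fell in all 3 listed transcripts (log2 -1.27 to -1.69). Low-temperature-induced 65 kDa protein, near the floor in control, rose as well (log2 0.95 ± 0.22, limma FDR 0.0291). A wider list was matched by wording of cutin and wax synthesis, which ERF proteins of another branch are known to activate. The wording also took in 1-acyl-sn-glycerol-3-phosphate acyltransferases and every described GDSL esterase/lipase, so not all of the list need be cutin or wax genes. In this list, 34 of 55 described genes passed as higher, 8 as lower and 13 did not pass, beside the same 71.9%, with a median log2 difference of 1.12. Of its 143 transcripts 103 passed, but 41 without control 2, 31 without IPA 2 and 64 without IPA 3. The rise with the lowest FDR was that of cytochrome P450 86A22, of a fatty acid hydroxylase family of cutin synthesis, from 27.3, 33.1 and 34.4 to 94.2, 107 and 105 (log2 1.68 ± 0.17, limma FDR 0.000796), and the fall with the lowest FDR was that of a GDSL esterase/lipase (TRINITY_DN128_c0_g1), from 17.7, 20.96 and 11.7 to 1.78, 1.84 and 1.36 (log2 -2.97 ± 0.23, limma FDR 0.000324). 3-ketoacyl-CoA synthase 11, of the enzymes that lengthen fatty acids for wax, rose from 3.86, 4.87 and 4.76 to 13.6, 19.3 and 15.99 (log2 1.74 ± 0.19, limma FDR 0.00105).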

How the data were processed

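RNA-seq of 6 samples was analysed from 2 tables. The authors deposited a normalised signal per transcript and library (by its values, read counts divided by a library factor). FastQC, Trimmomatic, BWA, featureCounts and edgeR are named in the submitters' processing notes, with neither role nor version. The authors' deposited list adds, for each called transcript, 5 columns per the file headers: log2 fold change, logCPM, the test score, its p-value and FDR.

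All deposited values were whole multiples of 1 read (within 0.01 reads), giving 30149649 to 45233584 reads per library. Of the values from 1 to 20 reads, 60.5% were even, so mates of a pair may be counted as 2 reads. Transcripts were kept by edgeR (4.0.16) filterByExpr (minimum count 10, minimum total 15; 78722 kept). The test was limma on log2(value + 0.5) (limma 3.58.1, R 4.3.3, trend and robust estimation) over all kept transcripts, with Benjamini-Hochberg adjustment at 0.05. The step was also run on simulated data with a fixed dispersion and changes planted only in transcripts with more reads than part of the members had. Its outcome is not given here and is not used as support. edgeR's quasi-likelihood test called 6393 transcripts of all and DESeq2 (1.42.0) 10358.

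Members and lists were chosen with earlier results of these data known. The rule for named genes took, per description class, the 6 highest and 6 lowest log2 differences with a mean of at least 0.5, the 4 genes with the highest mean value, genes going both ways, and up to 4 that did not pass. Other members were named after their values were seen, to account for all, and lists were given by up to 3 genes of lowest FDR, with others chosen after their values were seen. The subfamily of each name was set by hand from general knowledge. Columns of other samples numbered 0.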

Additional observations from a re-analysis of the deposited data

How the results depend on the processing

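Alternatives were the pseudocount, the filter on low reads, limma without its trend, other scalings, edgeR's quasi-likelihood test and DESeq2, sums over isoforms, a replicate block and leaving out each library. The number of the 34 genes with a call was 33 with DESeq2, against 20. The number of member transcripts lower in IPA was 2 with library totals as scaling, which moved the median log2 difference of all transcripts by 0.25, and 7 with DESeq2, against 4. The split of member calls was 42 higher and 4 lower with the deposited scaling and 56 and 2 with library totals. The log2 difference of SM reversed from -0.66 to 0.12 when isoforms were summed, since that gene had 7 unlisted isoforms. Of 287 values of the 17 genes named by rule, 278 were labelled the same, 8 moved and 1 reversed. The limits behind these labels are not given here, and the other members are not covered. The count is therefore not read as a measure of robustness.

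Leaving out 1 library at a time gave 10 to 51 member transcripts past FDR 0.05 (10 to 46 higher, 0 to 6 lower) in 5 to 23 genes. Of all transcripts tested, 1.64 to 13.2% passed in these fits. The ranges for transcripts of the lists were 2 to 4 for ethylene synthesis, 0 to 3 for perception and signalling, 2 to 10 for cold and dehydration and 31 to 113 for cutin and wax. Why single libraries matter so much was not tested.

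Same-numbered samples showed no sign of deviating together (correlations -0.0874, 0.0818 and -0.134). With 3 libraries per group these correlations cannot decide whether replicate numbers pair the samples, and the labels do not say. With the replicate block, 36 member transcripts (31 higher, 5 lower) of 18 genes passed, and 4, 2, 8 and 74 transcripts of the 4 lists in the order above. The share of all transcripts passing with the block is not given here, so nothing is read from these counts. Sums over isoforms give no count of transcripts. With 9 of the 34 genes under 10 reads in at least 1 library, depth limits values near the floor of 3 reads (0.0614 to 0.0954 units).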
